A study of Arabidopsis thaliana with 6 samples.

Results

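The genes described here are 20 transcription factor genes of Arabidopsis thaliana that the array platform's annotation names by a family and a number. The choice took every ATH1 probe set annotated to 1 gene whose symbol starts with MYB, BZIP, NAC, ANAC, BHLH or ERF and a number, in any case. It gave 14 bZIP genes, 5 bHLH genes and 1 NAC gene, out of 13350 gene symbols with such a single-gene probe set. It found 0 MYB genes and 0 ERF genes by symbol, so those families were compared only through genes of theirs listed under other symbols. Of the 22746 tested probe sets, 8730 had no listed gene in this annotation. Genes not found by symbol may therefore still be on the array. All 20 matched a RefSeq locus by gene ID. The rule goes by symbol and then takes the brightest probe set of a gene, but each of the 20 had only 1.

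RNA came from whole, untreated Col-0 seedlings that were 7 days old and had grown on agar with 1% sucrose, frozen at midday. The 35S:FLAG-SUB1A group (SUB1A) and the 35S:FLAG-SUB1C group (SUB1C) had been stably transformed with a FLAG-tagged rice transcription factor of the ERF family under the constitutive 35S promoter, and the third group was untransformed wild type (WT). Each group had 2 arrays from 2 biological replicates, 6 arrays in all. The labels do not say how many independent transformants each transgenic group holds and list no empty-vector line, so effects of a transgene cannot be told apart from other differences between the plants. The array design is for Arabidopsis, and the rice transgenes were not analysed here.

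The families share a way of working and differ in their partners. A bZIP protein binds DNA as a dimer held together by a leucine zipper, often at sites with an ACGT core, and its partners are usually bZIP proteins of the same or a matching group. A bHLH protein dimerises through a helix-loop-helix domain and commonly binds E-box sites, and NAC proteins are a plant-specific family. In seedlings these factors are known for roles in protein folding stress, metal supply, sugar and energy status, light and organ development.

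Values are log2 expression summaries made by the authors with RMA, and differences are between group means, given ± the standard error (SE) of a limma fit to all 6 arrays. A gene is said to have risen or fallen, or to be higher or lower, where limma gave an adjusted p under 0.05 after Benjamini-Hochberg adjustment over 22746 probe sets. Across probe sets, arrays of the same group correlated at 0.998 to 0.999 and arrays of different groups at 0.989 to 0.996. Of the tissue markers, 5 of 20 shoot genes were measured, that is, matched by symbol to a single-gene probe set. Their summed level on the log2 scale was 16.00 to 16.06 in SUB1A, 16.12 to 16.14 in SUB1C and 16.15 to 16.17 in WT. The 3 measured root genes summed to 14.19 to 14.24 in SUB1A, 14.18 to 14.24 in SUB1C and 14.08 to 14.11 in WT, and the 3 of flower and pollen to 7.40 to 7.43, 7.54 to 7.58 and 7.47 to 7.62 in the same groups. The root sum is mostly PYK10, which differed from WT by 0.11 in SUB1A and 0.09 in SUB1C without passing. EXPA7 and EXPA18, expansin genes of root hairs, were both higher than in WT, by 0.29 ± 0.08 each in SUB1A and by 0.78 ± 0.08 and 0.75 ± 0.08 in SUB1C, and both were lower in SUB1A than in SUB1C, by 0.49 and 0.46. Of these, the SUB1A calls against WT ended without WT replicate 2 or either SUB1A replicate, for EXPA18 also without WT replicate 1 (adjusted p up to 0.154). The calls between the lines ended without SUB1C replicate 1 (0.0628 and 0.0684), for EXPA18 also without SUB1A replicate 1 (0.0526). The 3 seed genes summed to 8.49 to 8.68 in SUB1A, 6.51 to 6.64 in SUB1C and 6.42 to 6.43 in WT. That was through the late embryogenesis gene M17, which rose by 4.16 ± 0.11 in SUB1A against WT, while M10 and PAP85 differed by -0.04 and -0.05 without passing. M17 averaged 8.31 in SUB1A, 4.61 in SUB1C and 4.15 in WT. The last 2 are under 5, read here as near background, so the size of its rise is uncertain. PAP85 averaged 4.91 in SUB1A and 4.96 in WT, also under 5, and M10 5.16 and 5.21, little above it. Changes in PAP85 and M10 could be compressed at those levels. In whole seedlings, fewer cells of a type and less RNA per cell cannot be told apart, and the part of these marker differences in the results below was not tested.

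Compared with WT, seedlings of the SUB1A line had less RNA of BZIP34 and BZIP61, a pair of closely related group E bZIP genes, and slightly more of bHLH104, an activator of the iron deficiency response. These were the only calls among the 20 genes, with 1 higher and 2 lower. Among all 22746 probe sets, 9.47% were higher and 10.8% lower in this comparison (20.2% in either direction), so the share called among the 20 was no larger than that among all probe sets. At an unadjusted p under 0.05, 5 of the 20 passed, beside 32.7% of all probe sets. The other 17 genes differed by between -0.18 and 0.14. The median difference of the 20 was -0.01, beside 0.01 for all probe sets, and the median size of the difference was 0.11 for both. bHLH104, at adjusted p = 0.0462, was the called gene nearest to the threshold, and BZIP53, at 0.14 ± 0.06 and adjusted p = 0.140 by limma, was the nearest of those not called.

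None of the 20 genes passed in the SUB1C line against WT in limma, beside 4.71% of all probe sets. Of all probe sets 2.84% were higher and 1.87% lower. At an unadjusted p under 0.05 in limma, 3 of the 20 genes passed in this comparison, namely BZIP61, bZIP19 and bZIP52, beside 20.6% of all probe sets. Differences from WT lay between -0.10 and 0.21, with a median of 0.06 for the 20 genes and a median size of 0.07, against 0.08 for all probe sets. The differences were positive for 18 of 20 genes and for 11007 of 22746 probe sets. The widest limits of any single 95% interval among the 20, without adjustment for their number, were -0.26 and 0.40. The gene nearest to the threshold was BZIP61, at adjusted p = 0.139.

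Set directly against the SUB1C line, the SUB1A line had lower levels of 3 bZIP genes, BZIP34, BZIP61 and bZIP52, and 0 of 20 genes were higher. Of all probe sets 6.48% were lower and 5.57% higher in this comparison, 12.1% in either direction. At an unadjusted p under 0.05, 8 of the 20 passed, beside 26.4% of all probe sets. The other 17 genes differed by between -0.25 and 0.16. bZIP52 lay just inside the threshold and bHLH115 just outside it, with adjusted p = 0.0458 and 0.0760 from limma. This comparison and the 2 with WT share arrays, so their values are given side by side and are not independent.

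**Figure D1:**
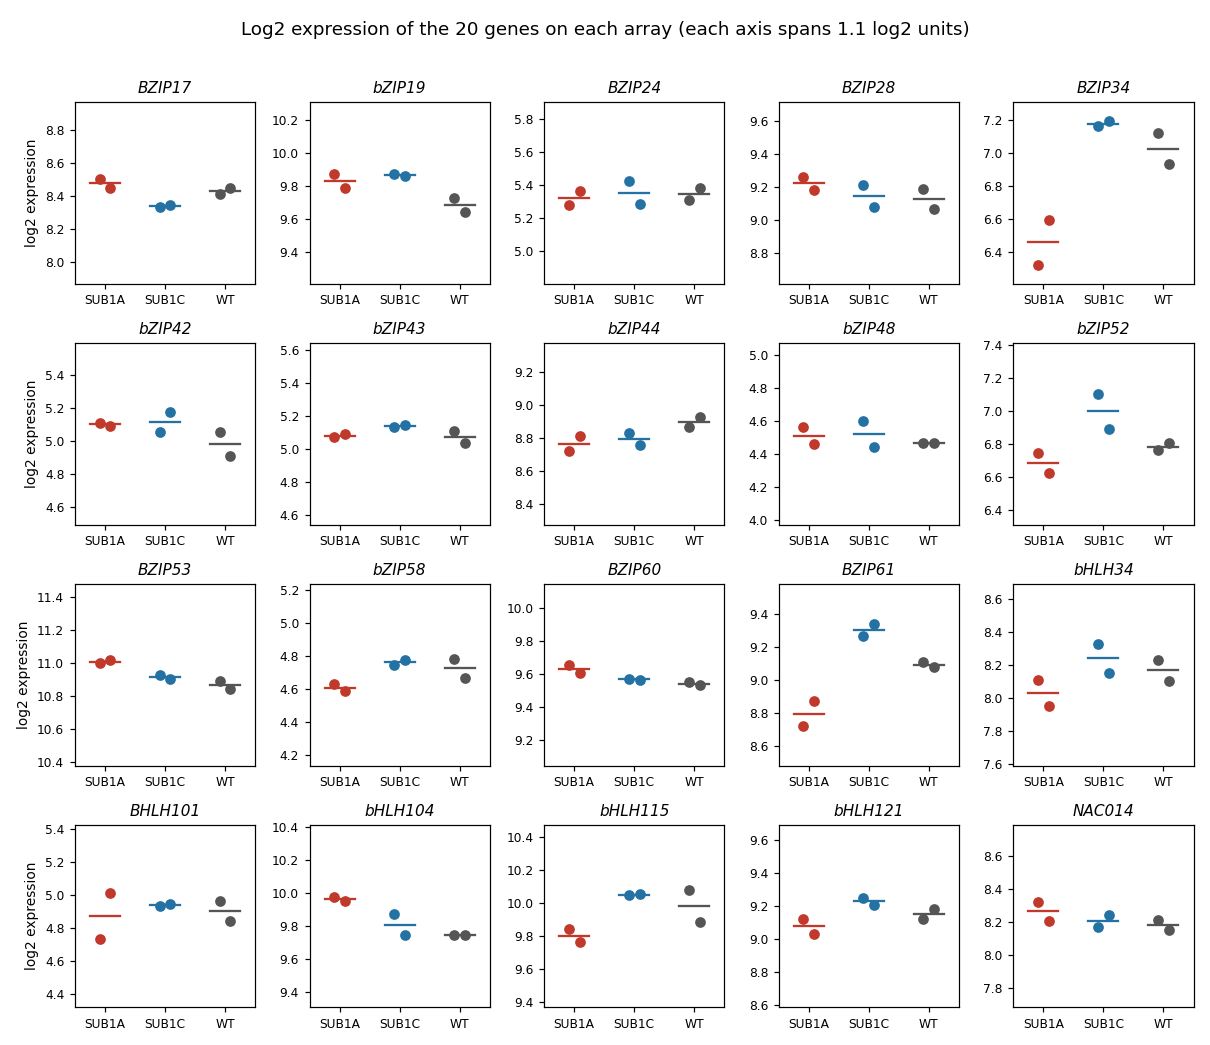
Log2 expression (vertical axes, each spanning 1.1 log2 units) of each of the 20 genes on the 2 SUB1A, 2 SUB1C and 2 WT arrays, where points are arrays and lines group means. BZIP34 stood at 6.32 and 6.59 on the SUB1A arrays, below 7.16 and 7.19 on the SUB1C arrays and 7.12 and 6.93 on the WT arrays. Over the 20 genes, the gap between the 2 replicates of a group had a median of 0.07 and was at most 0.28.

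BZIP34 and BZIP61 encode the group E bZIP factors. BZIP34, at locus AT2G42380, is known from work on pollen, where it is needed for normal wall patterning and lipid metabolism. On the SUB1A arrays BZIP34 had log2 values of 6.32 and 6.59, against 7.12 and 6.93 on the WT arrays, and the SUB1C arrays had 7.16 and 7.19. The SUB1A arrays lay below all 4 others. The difference of SUB1A from WT was -0.57 ± 0.10, 1.48-fold lower, with adjusted p = 0.00531 by limma, and that of SUB1A from SUB1C was -0.72 ± 0.10, 1.65-fold lower, with adjusted p = 0.00286. SUB1C differed from WT by 0.15 ± 0.10, which did not pass (95% interval -0.08 to 0.38). Without any 1 of the 6 arrays BZIP34 still passed in the comparison with WT, at -0.70 to -0.43, and in that with SUB1C, at -0.86 to -0.58.

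BZIP61, at AT3G58120, followed the same order of groups at its own level. Its log2 values were 8.72 and 8.87 in SUB1A, 9.27 and 9.34 in SUB1C and 9.11 and 9.08 in WT, and no 2 of the groups overlapped. Of all probe sets, 28.6% had both SUB1A arrays below both WT arrays and 24.5% had both SUB1C arrays above both WT arrays. SUB1A was lower than WT by a log2 difference of -0.30 ± 0.07, 1.23-fold, with adjusted p = 0.0199 by limma, and lower than SUB1C by -0.51 ± 0.07, 1.42-fold, with adjusted p = 0.00292. SUB1C minus WT was 0.21 ± 0.07 without passing. The call against WT ended without WT replicate 1 (adjusted p = 0.0857), without WT replicate 2 (adjusted p = 0.0548) and without SUB1A replicate 1 (adjusted p = 0.125), while the call against SUB1C held with each array left out, at -0.58 to -0.43.

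bZIP52, at AT1G06850, is a group I factor, the group that also holds VIP1, a regulator of osmotic and touch responses. Its log2 values were 6.75 and 6.62 in SUB1A, against 7.10 and 6.89 in SUB1C, with 6.76 and 6.81 in WT. SUB1A and SUB1C lay on opposite sides of WT, the upper SUB1A array by only a little. bZIP52 was lower in SUB1A than in SUB1C by a log2 difference of -0.31 ± 0.08, 1.24-fold. Neither line passed against WT, with -0.10 ± 0.08 in SUB1A and 0.21 ± 0.08 in SUB1C. The call between the lines ended without any 1 array other than SUB1C replicate 2, with adjusted p up to 0.269, and at 0.0606 with only the arrays of the compared groups.

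**Figure D2:**
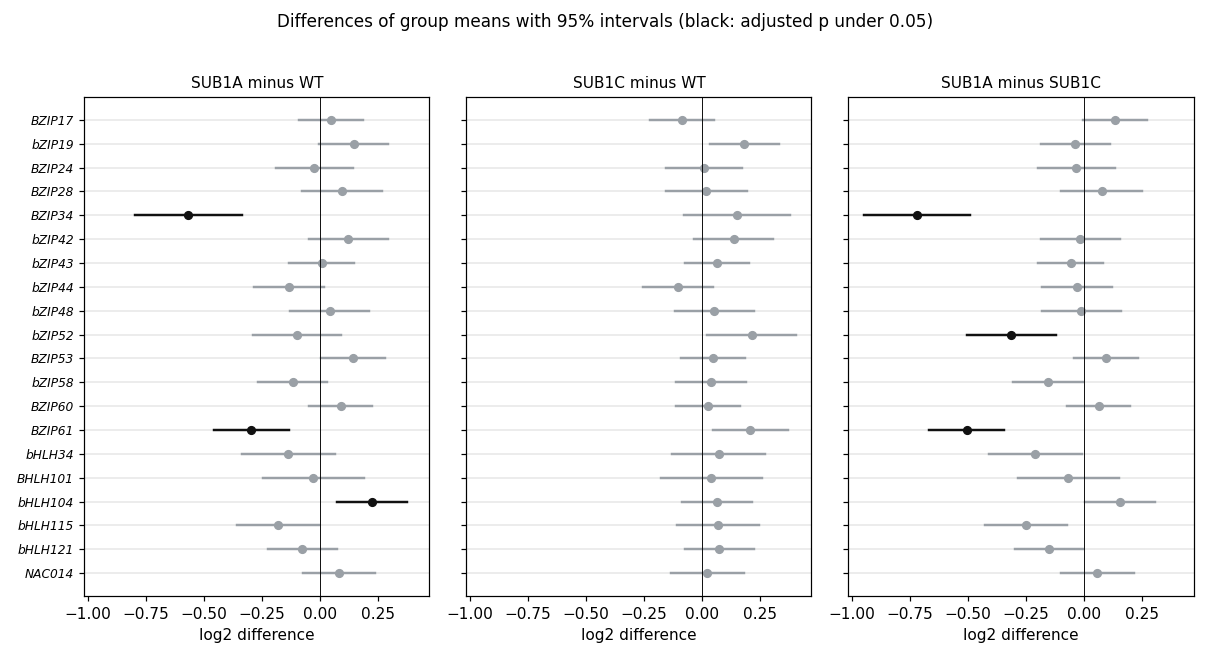
Differences of group means in log2 units (horizontal axes) for the 20 genes in the 3 comparisons, with points for the difference, lines for the 95% interval of that gene alone and black marking adjusted p under 0.05. Only BZIP34 at -0.57, BZIP61 at -0.30 and bHLH104 at 0.22 are black for SUB1A minus WT, none for SUB1C minus WT, and BZIP34, BZIP61 and bZIP52 for SUB1A minus SUB1C.

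The 5 bHLH genes all belong to the iron regulatory network. bHLH34, bHLH104 and bHLH115 are group IVc factors that, together with ILR3, activate the iron deficiency response, bHLH121 is their partner, and BHLH101 is one of the group Ib genes they switch on. 1 of the 5 rose in SUB1A against WT and 0 fell. 0 of 5 passed in SUB1C against WT and 0 of 5 between the lines. Of all probe sets 20.2%, 4.71% and 12.1% passed in the same comparisons. At an unadjusted p under 0.05 in limma, 2, 0 and 4 of the 5 passed, beside 32.7%, 20.6% and 26.4% of all probe sets. Between the lines, 1 of the 5 differences was positive and 4 were negative. Their median differences were -0.08, 0.07 and -0.15 in these comparisons, beside 0.01, -0.0042 and 0.01 for all probe sets.

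bHLH104, at AT4G14410, had log2 values of 9.98 and 9.95 in SUB1A, 9.87 and 9.74 in SUB1C and 9.74 and 9.74 in WT, and its SUB1A arrays were above all others. Its rise in SUB1A over WT was 0.22 ± 0.07, 1.17-fold, with adjusted p = 0.0462 by limma. That call ended without any 1 of the 6 arrays (adjusted p = 0.0586 to 0.174), with only the arrays of the compared groups (adjusted p = 0.0586) and with only single-gene probe sets (adjusted p = 0.0523). SUB1C differed from WT by 0.07 ± 0.07 and SUB1A from SUB1C by 0.16 ± 0.07, neither passing.

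The other group IVc genes had differences of the opposite sign in SUB1A, all short of the threshold with all 6 arrays. bHLH115, at AT1G51070, had 9.84 and 9.77 in SUB1A, 10.05 and 10.06 in SUB1C and 10.08 and 9.89 in WT. Its SUB1A arrays were below all others, with a difference of -0.18 ± 0.08 from WT and of -0.25 ± 0.08 from SUB1C. The difference from WT passed without WT replicate 2, at -0.28 and adjusted p = 0.0451. The difference from SUB1C passed at adjusted p = 0.0398 when only those lines were fitted and at 0.0360 with trended and robust moderation. bHLH34, at AT3G23210, had 8.11 and 7.95 in SUB1A, 8.33 and 8.15 in SUB1C and 8.23 and 8.11 in WT. Its arrays overlapped between SUB1A and WT, at -0.14 ± 0.09, and SUB1A minus SUB1C was -0.21 ± 0.09 without passing.

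bHLH121, at AT3G19860, had 9.12 and 9.03 in SUB1A, 9.25 and 9.21 in SUB1C and 9.12 and 9.18 in WT. It differed from WT by -0.08 ± 0.06 in SUB1A and by 0.07 ± 0.06 in SUB1C. SUB1A minus SUB1C was -0.15 ± 0.06 for bHLH121 without passing. BHLH101, at AT5G04150, averaged under 5, which was read as near background here, and its arrays ranged from 4.73 to 5.02. A change in BHLH101 could be compressed at that level, and its differences from WT were -0.03 ± 0.10 in SUB1A and 0.04 ± 0.10 in SUB1C. ILR3, listed under another symbol, had 10.54 and 10.60 in SUB1A, 10.64 and 10.67 in SUB1C and 10.63 and 10.67 in WT, and did not pass in any of the 3 comparisons. PYE, a bHLH regulator of iron homeostasis, differed from WT by 0.14 ± 0.08 in SUB1A and by 0.0005 ± 0.08 in SUB1C, also without passing.

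BZIP17, BZIP28 and BZIP60 encode the transcription factors of the unfolded protein response. BZIP17 and BZIP28 proteins sit in the endoplasmic reticulum membrane until proteases in the Golgi release them, and BZIP60 is activated by splicing of its messenger RNA, an event that these summaries do not separate from total RNA. BZIP17, at AT2G40950, had 8.50 and 8.45 in SUB1A, 8.33 and 8.35 in SUB1C and 8.41 and 8.45 in WT. BZIP28, at AT3G10800, had 9.26 and 9.18 in SUB1A, 9.22 and 9.08 in SUB1C and 9.19 and 9.07 in WT, with all groups overlapping. BZIP60, at AT1G42990, had 9.66 and 9.60 in SUB1A, 9.57 and 9.56 in SUB1C and 9.55 and 9.53 in WT. 0 of the 3 passed in any comparison by limma, with 0 of 3 also at an unadjusted p under 0.05. With 20.2%, 4.71% and 12.1% of all probe sets called, a count of 0 among so few genes is not set apart from the rest. SUB1A differed from WT by 0.05 ± 0.06 for BZIP17, 0.10 ± 0.08 for BZIP28 and 0.09 ± 0.06 for BZIP60. The upper 95% limits were 0.19, 0.27 and 0.23 in the same order of genes.

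Of 6 further genes of protein folding and degradation in the endoplasmic reticulum, 0 passed in any of the comparisons, beside the same shares of all probe sets. They included S1P, a protease that acts on membrane-bound factors, at 0.06 ± 0.07 in SUB1A and 0.0010 ± 0.07 in SUB1C against WT. The calreticulin gene CRT1b differed from WT by 0.10 ± 0.07 in SUB1A and by -0.05 ± 0.07 in SUB1C. DER1 (the brighter of 2 probe sets), DER2.1, DER2.2 and PDIL5-1 differed by between -0.13 and 0.06 in SUB1A and between -0.0033 and 0.10 in SUB1C.

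bZIP19 and BZIP24 are group F genes, the first an activator of zinc transporter genes under zinc deficiency and the second known from salt stress. bZIP19, at AT4G35040, had 9.87 and 9.78 in SUB1A, 9.87 and 9.86 in SUB1C and 9.72 and 9.64 in WT. Both lines lay above WT without overlap, by 0.14 ± 0.06 in SUB1A and 0.18 ± 0.06 in SUB1C, and neither passed (adjusted p = 0.163 and 0.157 by limma). Of all probe sets, 30.6% in SUB1A and 24.5% in SUB1C had arrays above WT without overlap. BZIP24, at AT3G51960, ranged from 5.28 to 5.42 over the 6 arrays and its groups overlapped. Of 2 zinc transporter family genes measured, ZIP9 was lower in SUB1A than in SUB1C by a log2 difference of -0.29 ± 0.07 with adjusted p = 0.0359, and its level was 5.40 and 5.54 in SUB1A, 5.71 and 5.80 in SUB1C and 5.57 and 5.51 in WT. Neither ZIP9 nor ZIP6 passed against WT. The ZIP9 call ended without SUB1A replicate 1 (adjusted p = 0.195), SUB1C replicate 1 (0.102) or SUB1C replicate 2 (0.208).

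BZIP53 and bZIP44 are group S1 genes, whose translation is repressed by sucrose and whose proteins pair with group C bZIP factors in low-energy responses. BZIP53 is also known for activating seed maturation genes. BZIP53, at AT3G62420, had 11.003 and 11.017 in SUB1A, 10.926 and 10.903 in SUB1C and 10.894 and 10.841 in WT, so its SUB1A arrays were above all others by a small margin. Its difference from WT was 0.14 ± 0.06 in SUB1A (95% interval 0.0048 to 0.28, for this gene alone) and 0.05 ± 0.06 in SUB1C. bZIP44, at AT1G75390, had 8.72 and 8.81 in SUB1A, 8.83 and 8.76 in SUB1C and 8.87 and 8.93 in WT, with both lines below WT at -0.13 ± 0.07 and -0.10 ± 0.07. Of the 3 low-energy genes AKINBETA1, MCCA and MCCB, 0 passed against WT, beside 20.2% of all probe sets for SUB1A and 4.71% for SUB1C. AKINBETA1, for a subunit of the energy-sensing kinase SnRK1, was lower in SUB1A than in SUB1C by -0.31 ± 0.07 with adjusted p = 0.0253, at 9.07 and 8.95 in SUB1A, 9.26 and 9.38 in SUB1C and 9.16 and 9.12 in WT. The AKINBETA1 call ended without SUB1A replicate 2 (adjusted p = 0.130), SUB1C replicate 1 (0.0643) or SUB1C replicate 2 (0.173).

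The remaining group S genes bZIP42, bZIP43, bZIP48 and bZIP58 were dim. bZIP48, at AT2G04038, and bZIP58, at AT1G13600, averaged under 5, as did BHLH101, which leaves 17 of the 20 genes at or above that level. Over the 6 arrays bZIP48 ranged from 4.44 to 4.60, bZIP58 from 4.59 to 4.78, bZIP42 from 4.91 to 5.18 and bZIP43 from 5.04 to 5.14. None of the 4 passed in any comparison, and their differences lay between -0.16 and 0.14. Of all probe sets 20.2% passed in SUB1A against WT, 4.71% in SUB1C against WT and 12.1% between the lines. With so few genes, a count of 0 is not set apart from those shares. NAC014, the 1 NAC gene, whose product is listed among the membrane-tethered NAC factors, had 8.32 and 8.21 in SUB1A, 8.17 and 8.24 in SUB1C and 8.21 and 8.15 in WT. Its groups overlapped, and its differences from WT were 0.08 ± 0.07 in SUB1A and 0.02 ± 0.07 in SUB1C.

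By family, the 14 bZIP genes held 0 rises and 2 falls in SUB1A against WT, 0 calls in SUB1C against WT, and 0 higher and 3 lower in SUB1A against SUB1C. Of all probe sets 9.47% rose and 10.8% fell in SUB1A against WT, 4.71% were called in SUB1C against WT, and 5.57% were higher and 6.48% lower in SUB1A against SUB1C. Their median differences in these comparisons were 0.03, 0.05 and -0.03. The SUB1A arrays lay wholly above those of WT for 6 of the 20 genes and wholly below for 7, beside 30.6% and 28.6% of all probe sets (59.2% together). The SUB1C arrays lay wholly above those of WT for 10 and below for 2, beside 24.5% and 26.7% (51.2% together). The SUB1A arrays lay wholly above those of SUB1C for 4 and below for 8, beside 30.7% and 27.2% (57.9% together). BZIP34 stood furthest out of the 20, with 546 of the 22746 probe sets having a more negative difference of SUB1A from WT and 203 of SUB1A from SUB1C. For BZIP61 these numbers were 1938 and 508.

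**Figure D3:**
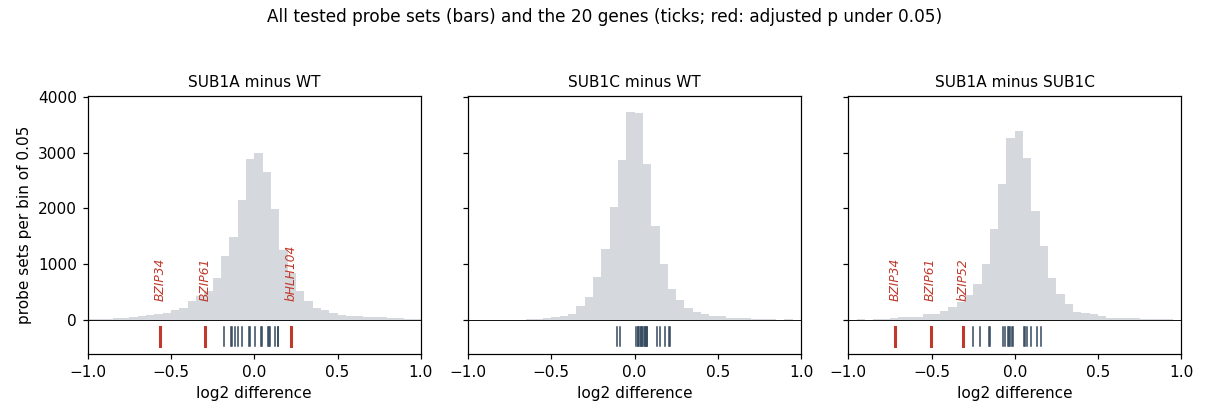
Number of probe sets in bins of 0.05 log2 units (bars, vertical axes) by the difference of group means (horizontal axes, from -1 to 1, larger differences not drawn), with the 20 genes as ticks below and those at adjusted p under 0.05 in red. Most ticks lie under the centre of the bars, and BZIP34 lies at -0.57 for SUB1A minus WT and -0.72 for SUB1A minus SUB1C.

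Genes of the bZIP, bHLH, NAC, AP2/ERF and MYB families that carry other symbols numbered 25 measured of 234 listed, after 1 symbol was left out because its probe set reads a gene of another family with the same symbol. Here too, measured means matched by symbol to a single-gene probe set, so the other listed genes may still be on the array. They were 12 bHLH, 9 AP2/ERF, 3 bZIP and 1 MYB gene. Of the 25, 0 rose and 5 fell in SUB1A against WT, 0 rose and 1 fell in SUB1C against WT, and 1 was higher and 2 were lower in SUB1A against SUB1C. The shares of all probe sets were 9.47% and 10.8%, 2.84% and 1.87%, and 5.57% and 6.48% in the same order. The 5 that fell in SUB1A came from the bHLH, AP2/ERF and MYB families.

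SPCH, the bHLH gene that starts the stomatal lineage, had 6.98 and 7.11 in SUB1A, 7.35 and 7.28 in SUB1C and 7.62 and 7.67 in WT. Both lines lay below WT without overlap, at -0.60 ± 0.07 in SUB1A with adjusted p = 0.000635 and at -0.33 ± 0.07 in SUB1C with adjusted p = 0.0328 by limma. The 2 lines also differed from each other for SPCH, by -0.27 ± 0.07 with adjusted p = 0.0389. Leaving out any 1 of the 4 arrays compared ended the SUB1C call against WT (adjusted p = 0.0845 to 0.170) and that between the lines (0.0524 to 0.218), whereas the SUB1A call held. MUTE, which acts later in the same lineage, had 5.26 and 5.49 in SUB1A, 5.24 and 5.09 in SUB1C and 5.41 and 5.32 in WT, and did not pass. SPCH was also among the shoot markers, whose LHCB4.2 and LHCB4.3 fell in SUB1A by 0.35 ± 0.07 and 0.42 ± 0.11. In SUB1C against WT, LHCB4.2 and LHCB4.3 differed by -0.14 ± 0.07 and -0.43 ± 0.11 without passing. SUB1A minus SUB1C was -0.20 ± 0.07 for LHCB4.2 and 0.0064 ± 0.11 for LHCB4.3, also without passing. The other shoot markers, LHCB4.1 and RCA, differed from WT by -0.04 ± 0.06 and -0.06 ± 0.06 in SUB1A without passing. The LHCB4.2 call ended without WT replicate 1 (adjusted p = 0.0664) or SUB1A replicate 1 (0.0776), and the LHCB4.3 call without WT replicate 1 (0.167), SUB1A replicate 1 (0.0606) or SUB1A replicate 2 (0.142).

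TINY2, a gene of the DREB branch of the AP2/ERF family, had 5.66 and 5.81 in SUB1A, 6.11 and 6.08 in SUB1C and 6.54 and 6.17 in WT. Its fall in SUB1A was -0.62 ± 0.11 against WT, with adjusted p = 0.00612 by limma, and SUB1C differed from WT by -0.26 ± 0.11 without passing. SNZ, an AP2-type repressor of flowering, had 6.61 and 6.66 in SUB1A, 7.05 and 6.74 in SUB1C and 7.07 and 7.11 in WT. It fell by 0.45 ± 0.10 in SUB1A, while SMZ, its close relative, differed by 0.13 ± 0.08. MYC4, a jasmonate response activator, had 7.56 and 7.66 in SUB1A, 7.74 and 7.94 in SUB1C and 8.02 and 7.96 in WT. It fell by 0.39 ± 0.08 in SUB1A, whereas MYC3 differed by -0.04 ± 0.07. TRY, a small MYB-type repressor of leaf hair formation, had 5.37 and 5.27 in SUB1A, 5.43 and 5.42 in SUB1C and 5.69 and 5.54 in WT, and fell by 0.29 ± 0.07 in SUB1A. Set against SUB1C, TRY in SUB1A differed by only -0.10 ± 0.07. For TINY2, SNZ, MYC4 and TRY the SUB1A arrays were the lowest of the 6. None of them passed in SUB1C against WT or in SUB1A against SUB1C, beside 4.71% and 12.1% of all probe sets. A fall in SUB1A alone is therefore not shown for them. These genes are named because they were called lower in SUB1A than in WT, so low SUB1A arrays are largely part of that choice. Both SUB1A arrays lay below both WT arrays for 28.6% of all probe sets, and below both SUB1C arrays for 27.2%. The share with the SUB1A arrays lowest of all was not counted.

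Some of these calls rested on single arrays. The SNZ call ended without WT replicate 1 (adjusted p = 0.0553), WT replicate 2 (0.0590) or SUB1A replicate 1 (0.0702), the MYC4 call without WT replicate 1 (0.0683) or SUB1A replicate 1 (0.0768), and the TRY call without WT replicate 1 (0.107) or SUB1A replicate 2 (0.113). Between the lines, NAI1, a bHLH gene needed for endoplasmic reticulum bodies, had 8.51 and 8.62 in SUB1A, 8.90 and 8.85 in SUB1C and 8.73 and 8.68 in WT, and was lower in SUB1A than in SUB1C by -0.31 ± 0.07 with adjusted p = 0.0186 by limma. The NAI1 call ended without SUB1A replicate 1 (adjusted p = 0.120), SUB1C replicate 1 (0.129) or SUB1C replicate 2 (0.0869). BIM1, whose product works with the brassinosteroid factor BES1, had 9.41 and 9.43 in SUB1A, 9.23 and 9.12 in SUB1C and 9.26 and 9.20 in WT, and was higher by 0.25 ± 0.07 with adjusted p = 0.0466. The BIM1 call ended without any 1 of the 6 arrays (adjusted p up to 0.264), with the compared lines alone, with only single-gene probe sets (0.0522), and with renewed quantile normalization (0.0545) or median centring (0.0556).

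**Figure D4:**
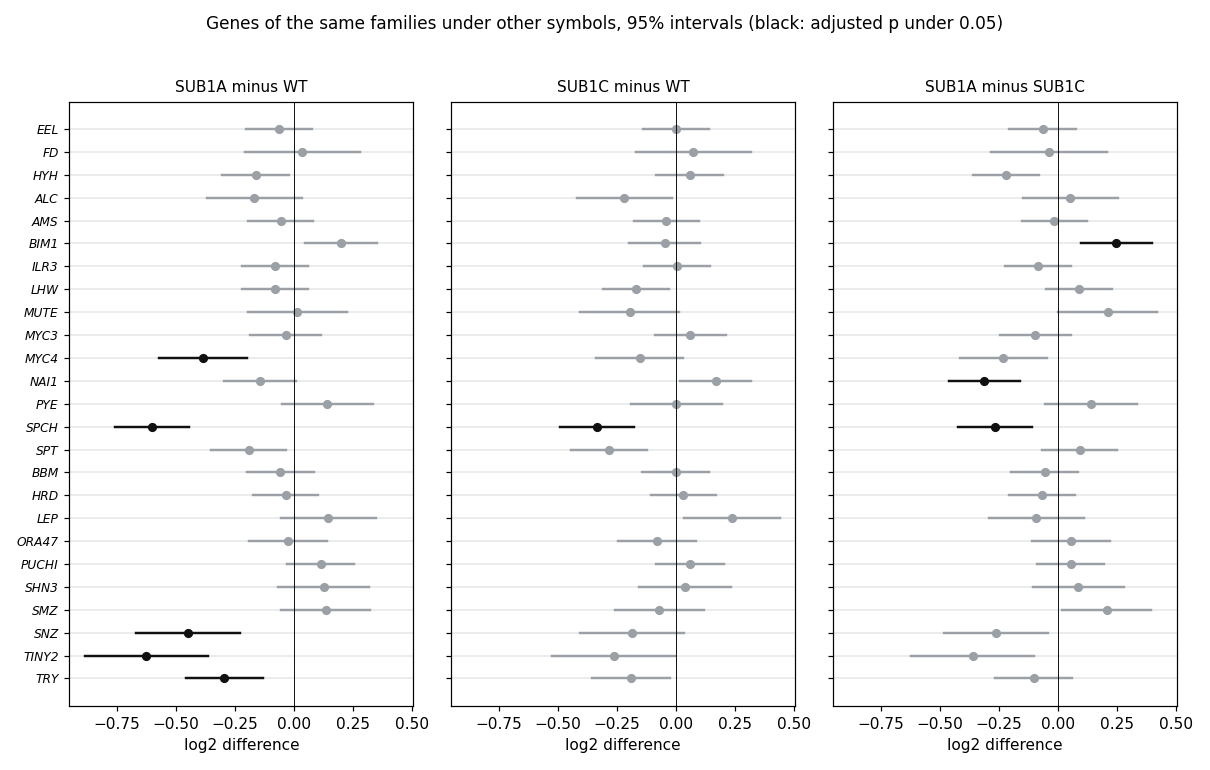
Differences of group means in log2 units (horizontal axes) for the 25 measured genes of the same families under other symbols, ordered bZIP, bHLH, AP2/ERF and MYB from the top, with 95% intervals of each gene alone and black marking adjusted p under 0.05. SPCH at -0.60, TINY2 at -0.62, SNZ at -0.45, MYC4 at -0.39 and TRY at -0.29 are black for SUB1A minus WT.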

How the data were processed

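The deposited table holds log2 values, and per the submitters' processing notes the authors computed them by RMA, with the version not given in the sources used here. Of 22810 probe sets, 64 controls were left out and 22746 tested, of which 13513 listed a single gene, 503 several and 8730 none. The platform annotation is old, and gene IDs were matched to RefSeq loci of TAIR10.1, by which 1 listed relative proved to be a gene of another family and was left out. Groups came from the sample titles. A linear model with group as its only term was fitted to all 6 arrays and all 22746 probe sets (limma 3.58.1, R 4.3.3). Moderated two-sided tests had 3 residual degrees of freedom and 5.37 from the prior, and p-values were adjusted by Benjamini-Hochberg across the 22746 (threshold 0.05). The fit was tested on simulated data. All differences added there were larger in size than those of bHLH104 and BZIP61 in SUB1A against WT and bZIP52 between the lines. Calls of that size were therefore not covered by it. Means under 5 were read as near background, since the table has no detection calls. The number of arrays limits the precision.

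Named genes were, per comparison and family, up to 3 called members with the largest rise and 3 with the largest fall, called members changed at least 2-fold, the most changed called member of role groups with 3 or more genes, and members beside the threshold. Other genes are given to account for every member. The members and lists were chosen with earlier results of these data known, and the 11 protein folding, zinc and low-energy genes and the pairing of group E and the remaining group S genes were added later. Deviations of arrays with the same replicate number correlated at -0.01, 0.04 and 0.02, so replicates were not paired. The fit was repeated with the replicate number as a block, on the arrays of each compared pair alone, after a further quantile normalization or median centring, without dim probe sets, on single-gene probe sets, with trended and robust moderation, and without each array in turn. Averaging over a gene's probe sets was not run, since the 20 genes have 1 each.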

Additional observations from a re-analysis of the deposited data

Results flagged for a closer look

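The SUB1A and SUB1C lines' differences from WT were unlike each other, by the direct test of SUB1A minus SUB1C in limma, for 3 of the 20 genes. These were BZIP34 at -0.72 (adjusted p = 0.00286), BZIP61 at -0.51 (adjusted p = 0.00292) and bZIP52 at -0.31 (adjusted p = 0.0458). Among the other genes of the same families the direct test passed for NAI1 at -0.31 (adjusted p = 0.0186), SPCH at -0.27 (adjusted p = 0.0389) and BIM1 at 0.25 (adjusted p = 0.0466). It also passed for AKINBETA1 at -0.31 (adjusted p = 0.0253) and ZIP9 at -0.29 (adjusted p = 0.0359). Of the tissue markers it passed for M17 at 3.70 (adjusted p = 1.35e-06), EXPA7 at -0.49 (adjusted p = 0.00667) and EXPA18 at -0.46 (adjusted p = 0.00797). Of all probe sets 12.1% passed this test.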

How the results depend on the processing

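The number of the 20 genes called was 3 in SUB1A against WT, 0 in SUB1C against WT and 3 in SUB1A against SUB1C. Leaving out 1 array gave 1 to 2, 0 and 2 to 3, and the 1 in SUB1A against WT came when either WT replicate 1 or SUB1A replicate 1 was omitted. The other 7 alternatives gave 2 to 3, 0 and 3 to 4. Replicate numbers did not pair the arrays, and the fit with a replicate block gave 2, 0 and 3, where bHLH104 was at adjusted p = 0.0535 in SUB1A against WT. In the block fit SPCH (adjusted p = 0.0524) and BIM1 (adjusted p = 0.0540) also missed the threshold between the lines. With trended and robust moderation SPCH was at 0.0504 there. The bZIP calls in SUB1A against WT were 1 to 2 with 1 array left out, and the bHLH calls 0 to 1, the 1 being bHLH115, lower without WT replicate 2. The median difference of the 20 genes in SUB1A against WT was -0.01, and -0.04 with renewed quantile normalization, 0.01 with the dim filter and 0.03 without WT replicate 1, so its sign is not settled. No call of a gene named in the text changed sign under the alternatives run for it. Among differences that did not pass, bHLH115 in SUB1C against WT ranged from -0.028 (without WT replicate 2) to 0.17 with 1 array left out, and bZIP19 in SUB1A against SUB1C from -0.081 to 0.0048 (without SUB1A replicate 2). Signal near background limits bZIP48, bZIP58 and BHLH101, and 2 arrays a group leave 95% intervals of about ± 0.14 to ± 0.23.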

Other observations

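SPCH and TRY lie next to each other in the RefSeq annotation (loci AT5G53210 and AT5G53200), a point seen after their values were known. SPCH fell by 0.60 ± 0.07 and TRY by 0.29 ± 0.07 in SUB1A against WT, and in SUB1C against WT they differed by -0.33 ± 0.07 and -0.19 ± 0.07, of which only SPCH passed. The arrays of both lines lay below those of WT for each gene. Arrays lay wholly below those of WT for 28.6% of all probe sets in SUB1A and for 26.7% in SUB1C, each line counted separately. As given above, the TRY call in SUB1A and the SPCH call in SUB1C each ended when certain single arrays were left out. Whether the position of the loci plays a part was not tested.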
